A study of Mus musculus with 4 samples.

Results

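The genes that supply fatty acids to skeletal muscle and burn them in its mitochondria were examined in the quadriceps of mice that lack the muscle-specific α2 exon of Mef2d. The set has 36 genes, picked by gene symbol out of the 51826 rows of the deposited count table, by a rule that uses no measured value. It holds genes of fatty acid uptake and binding (4 genes), lipases (3 genes), acyl-CoA synthetases (5 genes), the carnitine shuttle and the enzyme that controls it (4 genes), acyl-CoA dehydrogenases (6 genes), the later steps of beta-oxidation (5 genes), enzymes for unsaturated fatty acids (3 genes), electron transfer (3 genes), and thioesterases with the uncoupling protein Ucp3 (3 genes). The 36 genes were among the 16120 that passed the filter on low counts, and none of them passed through a single genotype, since the lowest count of any of them in any mouse was 156.

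RNA came from 4 sedentary male mice on the C57BL6/J background, aged 20 weeks and fed standard chow, whose muscles were collected inside a window of an hour. There were 2 WT mice (Mef2dα2 wt/wt) and 2 Mef2dα2 Eko mice (Mef2dα2 e-/e-, written Eko from here on), and each mouse gave 1 library of polyA-selected RNA. MEF2D is a transcription factor, and its α2 exon is used in muscle in place of the α1 exon. CRISPR-Cas9 removed the α2 exon in the germline, so the deletion is present in every tissue, the gene and its α1 exon remain, and the founder line of the sequenced mice is not given in the sources used here. No source used here pairs the mice by their replicate number, and with 2 mice in each genotype the spread between mice is known only roughly.

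Total expected counts per library were between 72626757 and 85176059, so that 3 counts, taken as the lowest level that can be told from 0, stood for 0.0348 to 0.0419 CPM (counts scaled to the library total after TMM) with counting error alone. Mef2d itself was at 259 and 227 CPM in WT mice against 252 and 241 CPM in the Eko mice, a log2 fold change of 0.02 (edgeR adjusted p = 0.960). Gene-level counts cannot show the missing exon, so they do not check the genotype labels. Abundant skeletal muscle transcripts were in place in every mouse, with Myh4, the fast myosin heavy chain, between 64359 and 69587 CPM. WT replicate 1 stood apart from the other libraries, with a chi-square statistic per degree of freedom of 130 to 230.3 against each of them, where the other pairs had 38.7 to 45.3.

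Muscle fibres take up fatty acids that lipoprotein lipase frees from circulating triglyceride, or release them from their own lipid droplets. The acids are bound in the cytosol, joined to coenzyme A, carried into mitochondria as carnitine esters, and shortened in a cycle of dehydrogenation, hydration, dehydrogenation and thiolysis whose electrons reach the respiratory chain through electron transfer flavoprotein. Oxidative fibres hold more of this machinery than glycolytic fibres, and many of its genes are textbook targets of PPAR and oestrogen-related receptors.

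The starts of these genes are shown first, because PPAR and oestrogen-related receptors bind short known letters of DNA and because Hadha and Hadhb share a start region. RefSeq windows on GRCm38.p6, from 250 bases before to 50 bases after a start, were available for 31 of the 36 genes, and Lpl, Cpt1b, Decr1, Acaa2 and Acot13 had none. Some genes, such as Acsl6 and Slc27a1, had windows at several starts. Both strands were searched, and overlapping matches were each kept. The DR1 element, written AGGTCANAGGTCA and allowed up to 2 mismatches, stood in the windows of Cd36, Ucp3, Echs1 and Etfa, which is 12.9% of the 31 genes against 4.40% of 27025 genes. The element TCAAGGTCA, which oestrogen-related receptors bind, was found without a mismatch only for Acsl6, 3.23% of the 31 genes against 0.466% of all genes. The GC box GGGCGG stood in a window of 22 of the 31 genes (71.0%) and in 38.2% of all genes. The MEF2 consensus was in the windows of 0 of the 31 genes and in 3.70% of all genes, which says only that its letters are not in these windows. In the sequences below, written 5′ to 3′ on the strand of the gene, capitals mark the DR1 element in the 100 bases just before the RefSeq start of Cd36 (chr5:17835897-17835996, minus strand), Ucp3 (chr7:100472891-100472990, plus strand), Echs1 (chr7:140116422-140116521, minus strand) and Etfa (chr9:55512244-55512343, minus strand). The Cd36 start used lies inside the GENCODE span of the gene (chr5:17781690-17888801), away from its upstream end. For Acsl6 (chr11:54303624-54303723, plus strand), capitals mark the oestrogen-related receptor element, 167 to 159 bases before one of its starts. Hadha on the minus strand and Hadhb on the plus strand have 85 bases between their starts, and this whole stretch (chr5:30155163-30155247, plus strand, between the GENCODE starts) is printed with its 2 GC boxes in capitals.
Cd36: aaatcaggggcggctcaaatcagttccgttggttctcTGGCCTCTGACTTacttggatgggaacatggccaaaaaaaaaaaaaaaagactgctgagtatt
Ucp3: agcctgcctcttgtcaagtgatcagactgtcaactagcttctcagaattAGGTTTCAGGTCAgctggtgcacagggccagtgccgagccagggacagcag
Echs1: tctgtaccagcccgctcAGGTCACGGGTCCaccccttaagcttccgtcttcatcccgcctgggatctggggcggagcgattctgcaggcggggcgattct
Etfa: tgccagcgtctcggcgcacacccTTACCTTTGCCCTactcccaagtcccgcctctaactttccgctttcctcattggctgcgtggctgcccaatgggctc
Acsl6: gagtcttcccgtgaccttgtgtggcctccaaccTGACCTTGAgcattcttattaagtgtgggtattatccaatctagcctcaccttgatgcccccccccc
Hadha and Hadhb: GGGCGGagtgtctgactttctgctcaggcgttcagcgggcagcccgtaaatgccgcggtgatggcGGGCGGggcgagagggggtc

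These matches are a description of letters, and no binding was measured. Of the 4 genes with the DR1 element, Cd36 and Etfa were lower in both Eko mice than in both WT mice, and the genotypes overlapped for Ucp3 and Echs1. Acsl6, with the oestrogen-related receptor element, was higher in both Eko mice.

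Levels differ widely within the set. Per kb of the longest coding transcript, the only scale used here to set genes side by side, Fabp3, the fatty acid binding protein of heart and muscle, had the highest WT level, at 371 ± 42.0 CPM per kb (SD, n = 2). Lpl, lipoprotein lipase, came next at 135 ± 16.7 CPM per kb. Hadhb at 101 ± 8.71, Acadl at 98.4 ± 1.3 and Acadm at 98.2 ± 4.44 CPM per kb followed, and these neighbours did not differ beyond their spread. Etfb, at 87.7 ± 11.3 CPM per kb, was within its spread of Acadm and Acadl too. Pnpla2, Cpt1b, Acsl1 and Acadvl lay close together, between 68.6 and 72.0 CPM per kb, and Hadha was below them at 61.1 ± 0.173 CPM per kb. The bottom of the order was held by Cpt1a (1.51 ± 0.0409 CPM per kb), Acad10 (0.670 ± 0.0170 CPM per kb) and Acsl5 (0.573 ± 0.0104 CPM per kb), each with at least 156 counts in every mouse. The set as a whole was well expressed, with a median WT level of 67.2 CPM against 6.09 CPM for the 16120 genes. The order, the top place included, depends on the length used. With the exons joined into a union, Fabp3 stayed first, Acadl came next and Lpl was at 53.1 ± 6.57 CPM per kb, in place 7. With the median transcript length, which counts incomplete transcripts, Acsl1 was first at 400.1 CPM per kb, Fabp3 next and Lpl in place 6.

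**Figure D1:**
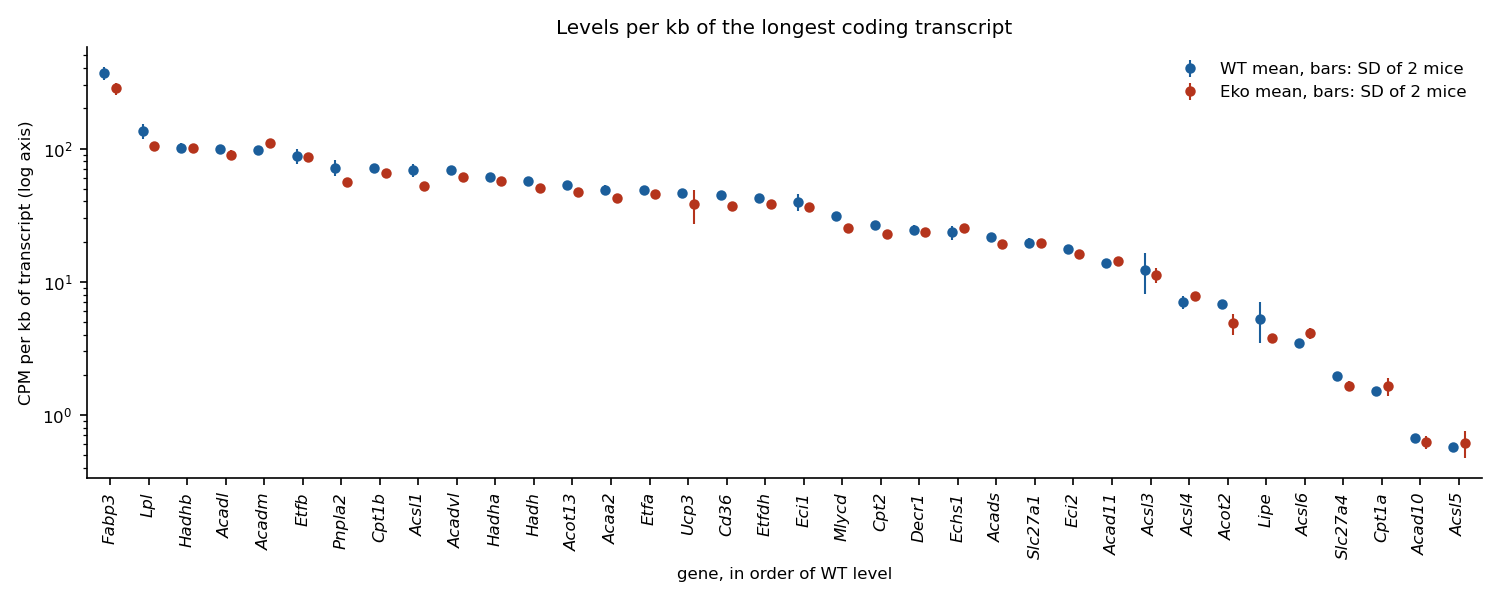
Level of each of the 36 genes in CPM per kb of the longest coding transcript (log axis), in order of WT level, with the mean of 2 WT mice in blue and of 2 Eko mice in red and bars for the SD. Fabp3 stands at the top at 371 CPM per kb in WT mice and Acsl5 at the bottom at 0.573 CPM per kb, and the genotypes lie close together along the order.

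The first comparison asked how these transcripts stood in Eko against WT muscle. Most of the set was somewhat lower in Eko mice. The 7 genes with the lowest unadjusted p, Mlycd, Acsl1, Lpl, Fabp3, Acot2, Cd36 and Pnpla2, had mean levels between 71.8% and 83.0% of WT. In bulk tissue, fewer cells of a type cannot be told apart from less RNA per cell. None of the 36 genes passed edgeR's quasi-likelihood test at an adjusted p of 0.05, where 0.416% of all genes did (67 of 16120). The adjusted p of the 36 genes lay between 0.165 and 0.992, and 11 had an unadjusted p below 0.05, 10 lower and 1 higher, beside 6.41% and 5.15% of all genes in these directions. DESeq2 called 4 of the 36 lower (Acsl1, Fabp3, Lpl and Mlycd), where it called 1.40% of the genes with an adjusted p lower. In other tests, edgeR's likelihood ratio test called Acsl1 alone, where 1.94% of all genes were called, and limma-voom called 0 of the 36 and 57 of the 16120. Without a filter on low counts, edgeR called 9 lower (Acot2, Acsl1, Cd36, Fabp3, Lipe, Lpl, Mlycd, Pnpla2 and Ucp3), beside 3.25% of all genes in either direction.

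Both Eko mice were below both WT mice for 21 of the 36 genes (58.3%), while this held for 23.0% of all genes. Both were above for 3 genes, Acsl4, Acsl6 and Acadm, against 20.8% of all genes, and the mice overlapped for the other 12. The log2 fold change was negative for 28 genes and positive for 8, with a median of -0.13 where all genes had a median of -0.01, and a range from -0.48 to 0.25. These genes share 4 libraries and are not independent of each other. Without WT replicate 1, the library that stood apart, 29 of the 36 genes had both Eko mice below the remaining WT mouse, where 36.7% of all genes did. The count was 22 without WT replicate 2 (38.3% of all genes), 22 without Eko replicate 1 (38.6%) and 24 without Eko replicate 2 (34.9%). Across all genes, the log2 fold change had a rank correlation of -0.21 with GC content. With a correction for it, the median of the 36 genes was -0.11 where that of all genes was 0.02, and differences shrank by more than 1.5 times for Slc27a4 (-0.15), Cpt1b (-0.014), Acads (-0.058), Acadvl (-0.10), Hadha (-0.062), Eci1 (-0.071), Acad10 (-0.039) and Acsl4 (0.098). They grew by as much for Cpt1a (0.18) and Decr1 (-0.080), and Mlycd was at -0.21.

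**Figure D2:**
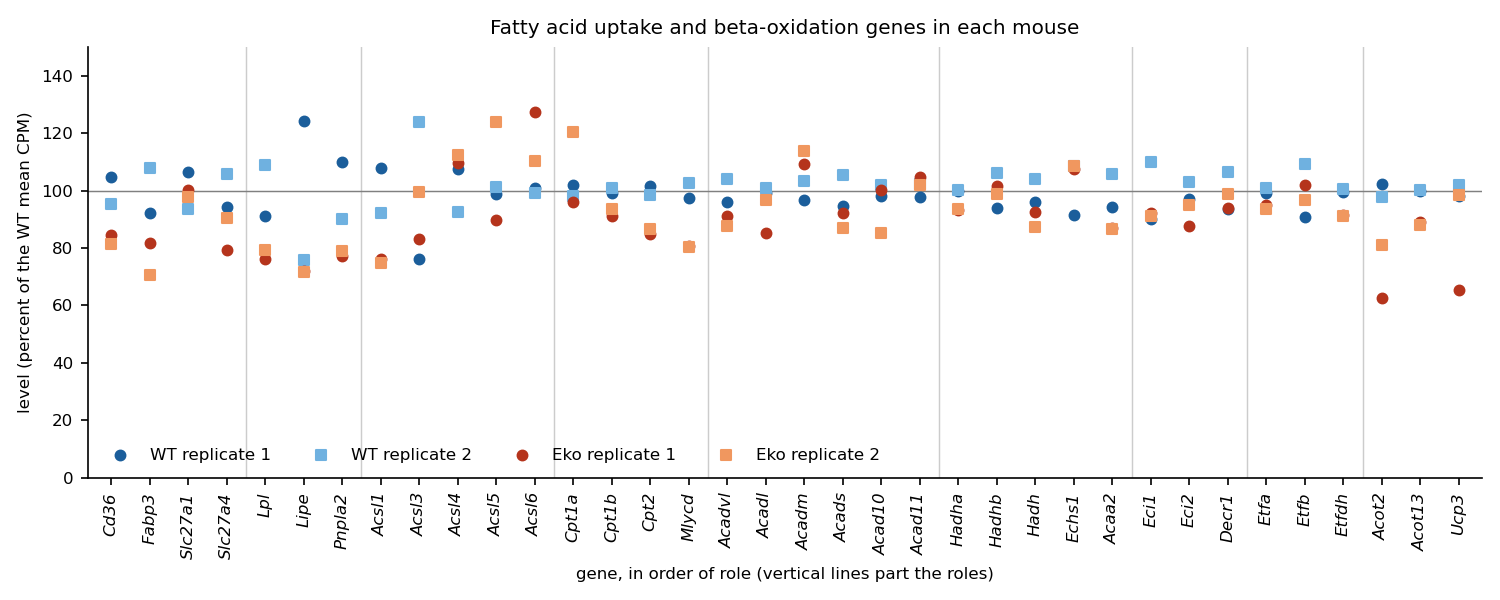
Level of each gene in each mouse as a percent of the WT mean CPM, in order of role. Eko mice (red and orange) sit below WT mice (blue shades) for 21 of the 36 genes, above them for Acsl4, Acsl6 and Acadm, and among them for 12.

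Of the 4 genes of fatty acid entry, 3 were lower in both Eko mice, where 23.0% of all genes were. Cd36, the main membrane protein of fatty acid uptake (chr5:17781690-17888801, GENCODE on GRCm38), was at 159 and 145 CPM in WT mice against 129 and 124 CPM in the Eko mice. The WT mice were both above the Eko mice, and the log2 fold change was -0.27 (95% interval -0.44 to -0.09, edgeR adjusted p = 0.260). Fabp3 (chr4:130308595-130315463), which carries fatty acids through the cytosol, was at 281 and 329 CPM in WT mice against 249.65 and 215 CPM in Eko mice. Its groups were likewise apart, with a log2 fold change of -0.39 (95% interval -0.64 to -0.14, edgeR adjusted p = 0.251). That value lay between -0.50 and -0.26 when each mouse was left out in turn. By RT-qPCR in sedentary muscle, the paper reported significantly higher Fabp3 transcripts in Eko mice and no difference in Cd36 transcripts. The paper also reported more CD36 protein in sedentary Eko muscle. Slc27a4, a fatty acid transport protein with acyl-CoA synthetase activity, had 7.46 and 8.35 CPM in WT and 6.26 and 7.15 CPM in Eko mice, a log2 fold change of -0.24. Slc27a1, the more abundant transporter of this family in muscle, overlapped between genotypes, at 58.3 and 51.1 CPM in WT and 54.8 and 53.5 CPM in Eko mice, and its log2 fold change of -0.01 had a 95% interval from -0.21 to 0.18. It changed sign under other settings, up to 0.09 with a correction for GC content.

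The 3 lipases were lower in both Eko mice, as were 23.0% of all genes. Their summed level was 740.4 and 790.3 CPM in WT against 584 and 604 CPM in Eko mice. Lpl (chr8:68880491-68907448), the enzyme that frees fatty acids from lipoproteins at the capillary wall, was at 508 and 605 CPM in WT mice. In Eko mice it was at 424 and 441 CPM, below both WT mice, with a log2 fold change of -0.36 (95% interval -0.59 to -0.14, edgeR adjusted p = 0.238). Without WT replicate 2, the log2 fold change was -0.22. Pnpla2 (chr7:141455198-141460743), which encodes adipose triglyceride lipase and opens the breakdown of droplet triglyceride, had 208 and 170.0 CPM in WT and 146 and 149 CPM in Eko mice. The WT mice differed from each other more than the Eko mice did, yet did not overlap with them, and the log2 fold change was -0.36 (95% interval -0.60 to -0.12, edgeR adjusted p = 0.265). It was -0.20 without WT replicate 1, the library that stood apart. Lipe, hormone-sensitive lipase, rested on 1 mouse: WT replicate 1 was at 24.3 CPM, while WT replicate 2 had 14.8 CPM and the Eko mice 14.1 and 14.0 CPM. Its log2 fold change of -0.48 (95% interval -0.97 to 0.01) became -0.08 without WT replicate 1.

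The summed level of fat cell markers, though not most of the markers one by one, stood in the same order among the mice as Lipe. That order rested on Cfd, the largest of the markers, at 48.5 and 16.9 CPM in WT and 8.61 and 5.72 CPM in Eko mice. Most of the other markers were higher in Eko replicate 1 than in WT replicate 2. A list of 9 adipocyte markers, of which Ucp1 was at 0 in every mouse, summed to 84.2 and 32.4 CPM in WT and 27.4 and 12.2 CPM in Eko mice. Of the 8 markers tested, 3 were lower in both Eko mice, where 23.0% of all genes were, a share that stands beside each list here. Adipoq, a hormone made by fat cells, was at 9.87 and 4.83 CPM in WT and 4.86 and 2.01 CPM in Eko mice. A list of 7 macrophage markers summed to 38.7 and 31.6 CPM in WT and 28.7 and 21.04 CPM in Eko mice, with 5 of 7 lower in both. Fat cells and macrophages also make Lpl, Cd36 and the lipases, and the part of these cells in the differences was not tested. Endothelial markers, from cells that carry Cd36 as well, summed to 190.0 and 174 CPM in WT and 165 and 191 CPM in Eko mice, so the genotypes overlapped, with 1 of 9 lower in both.

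Among the genes of activation to acyl-CoA, 1 of 5 was lower and 2 were higher in both Eko mice, beside 23.0% and 20.8% of all genes. Acsl1 (chr8:46471037-46536051), the main long-chain acyl-CoA synthetase of muscle, was at 290.4 and 248 CPM in WT mice against 205 and 201 CPM in Eko mice. The Eko mice were close to each other and below both WT mice, with a log2 fold change of -0.41 (95% interval -0.62 to -0.20, edgeR adjusted p = 0.170) and a mean level of 75.4% of WT. Under DESeq2 its adjusted p was 0.00436, and its log2 fold change lay between -0.50 and -0.29 when each mouse was left out in turn. Acsl6 (chr11:54303798-54364756), a synthetase best known from brain, was higher in both Eko mice, at 25.5 and 22.2 CPM against 20.3 and 19.9 CPM in WT. Its log2 fold change was 0.25 (95% interval 0.04 to 0.46, edgeR adjusted p = 0.364), and it was the single gene of the set with an unadjusted p below 0.05 and a positive sign. Acsl4, a synthetase that prefers arachidonic acid, was at 39.8 and 34.3 CPM in WT and 40.6 and 41.6 CPM in Eko mice, which left the groups less than 1 CPM apart, and its log2 fold change was 0.15 (95% interval -0.06 to 0.36). Acsl3, a synthetase of lipid droplets and the endoplasmic reticulum, was spread widely between the WT mice, at 36.8 and 60.0 CPM, with the Eko mice between them at 40.3 and 48.1 CPM. Acsl5, present in mitochondria and the endoplasmic reticulum, was low, from 2.18 to 3.01 CPM, with both extremes in Eko mice. Exons of Acsl1, Acsl5 and Acsl6 overlap a gene on the other strand, and the strand setting of the counting is not given in the sources used here, so reads of these partners may be in their counts.

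In terms of share, Acsl1 made up 78.1% and 71.2% of the summed CPM per kb of the 5 synthetases in WT mice and 69.7% and 67.7% in Eko mice. Acsl6 took 3.66% and 3.83% in WT and 5.84% and 5.01% in Eko mice, and Acsl4 took 7.90% and 7.26% in WT and 10.2% and 10.3% in Eko mice. The genotypes did not overlap for any of these shares. With 2 mice against 2, the exact two-sided permutation test cannot give a p under 0.333, which was the value for each of them. Counts of Acsl1 for each count of Acsl6 were 14.3 and 12.5 in WT mice and 8.02 and 9.07 in Eko mice. Shares depend on the transcript length used, as Acsl1 made up 55.6 ± 6.38% of the family in WT with joined exons and 91.1 ± 1.98% with the median transcript length, while the order of the genotypes for Acsl1, Acsl4 and Acsl6 was the same with each length.

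**Figure D3:**
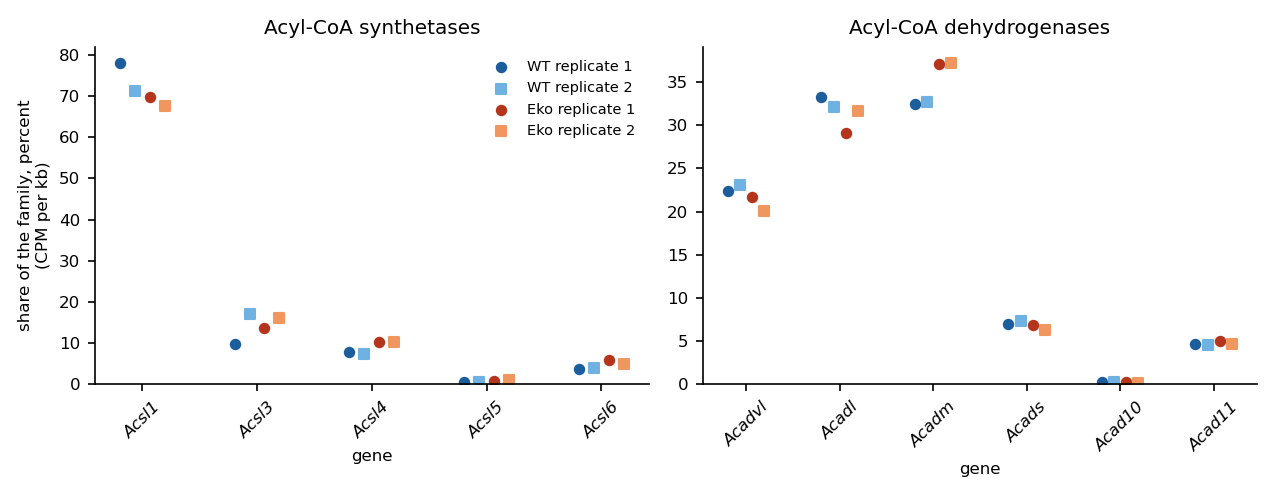
Share of each gene in the summed CPM per kb of its family, in percent, for acyl-CoA synthetases (left) and acyl-CoA dehydrogenases (right), with a point for each mouse. Acsl1 is lower in both Eko mice (69.7% and 67.7%) than in both WT mice (78.1% and 71.2%), and Acadm is higher (37.1% and 37.2% against 32.5% and 32.7%).

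At the carnitine shuttle, 3 of 4 genes were lower in both Eko mice, beside 23.0% of all genes. They were led by the enzyme that clears the inhibitor of the shuttle. Mlycd (chr8:119394878-119411102) encodes malonyl-CoA decarboxylase, which removes malonyl-CoA, the inhibitor of carnitine palmitoyltransferase 1. It was at 64.8 and 68.4 CPM in WT mice against 53.6 and 53.4 CPM in Eko mice, a gap wider than the spread within either genotype. The log2 fold change was -0.32 (95% interval -0.47 to -0.16), and its edgeR adjusted p of 0.165 was the lowest of the 36 genes. Cpt2, the inner membrane enzyme that remakes acyl-CoA, had 63.7 and 61.6 CPM in WT and 53.1 and 54.2 CPM in Eko mice, again with no overlap, and a log2 fold change of -0.22 (95% interval -0.38 to -0.07, edgeR adjusted p = 0.284). Cpt1b, the muscle isoform of the outer membrane enzyme, differed less, with 205 and 209 CPM in WT and 188 and 194 CPM in Eko mice and a log2 fold change of -0.12 (95% interval -0.27 to 0.03). Cpt1a, the liver isoform, was low and overlapped, at 6.66 and 6.41 CPM in WT and 6.26 and 7.86 CPM in Eko mice. Cpt1b held 97.4% and 97.7% of the summed CPM per kb of Cpt1a, Cpt1b and Cpt1c in WT and 97.3% and 97.1% in Eko mice.

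**Figure D4:**
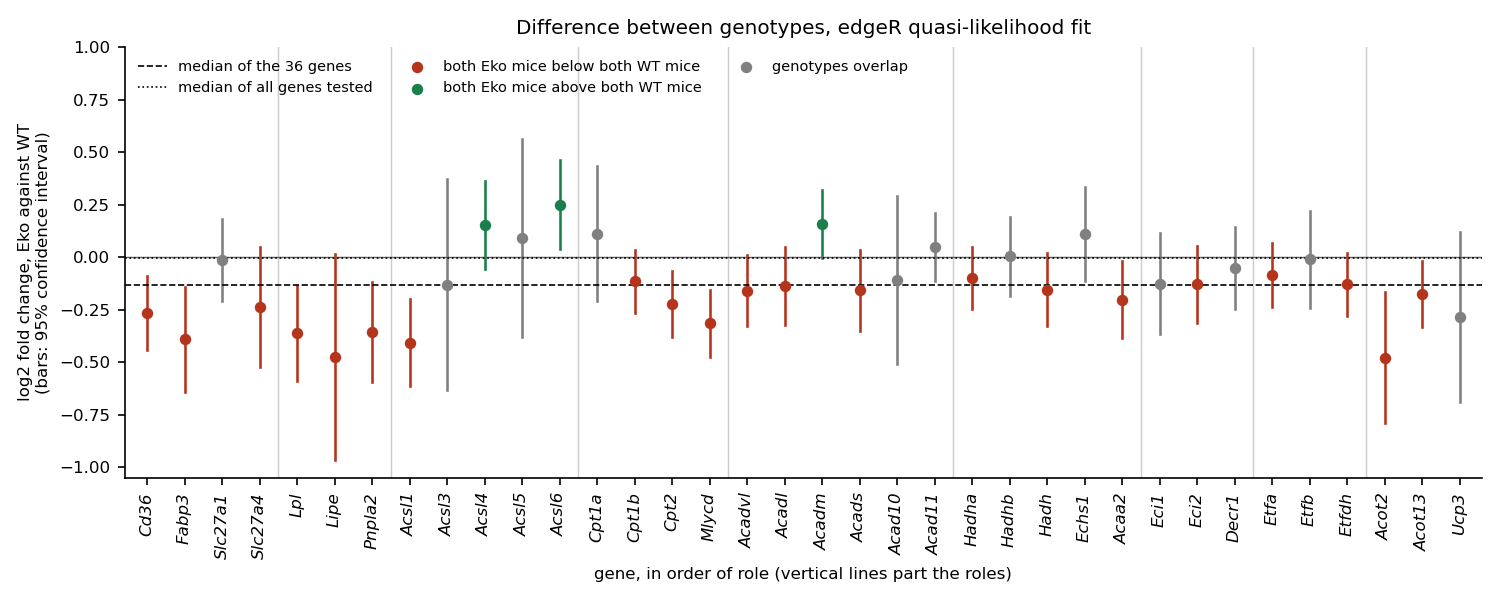
Log2 fold change of each gene in Eko against WT mice from edgeR's quasi-likelihood fit, with bars for the 95% interval, red where both Eko mice were below both WT mice, green where both were above, and grey where they overlapped. The dashed line is the median of the 36 genes (-0.13) and the dotted line that of all genes (-0.01), and the values run from -0.48 for Acot2 to 0.25 for Acsl6.

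Acyl-CoA dehydrogenases, which take the first step of each round and differ in the chain length they prefer, had a smaller range, with log2 fold changes from -0.16 to 0.16. Acadm, the medium-chain enzyme (chr3:153922357-153944632), was the dehydrogenase that was higher in both Eko mice, at 195 and 207 CPM in WT mice and 219.5 and 229 CPM in Eko mice. Its groups did not overlap, and the log2 fold change was 0.16 (95% interval -0.01 to 0.32, edgeR adjusted p = 0.449). Acadvl, the very-long-chain enzyme, was at 142 and 155 CPM in WT and 136 and 131 CPM in Eko mice, lower in both, with a log2 fold change of -0.16 (95% interval -0.33 to 0.01). Acadl, the long-chain enzyme, had 187 and 190.3 CPM in WT and 161 and 182 CPM in Eko mice, and its log2 fold change was -0.14 (95% interval -0.33 to 0.05). Acads, the short-chain enzyme, had 38.1 and 42.4 CPM in WT and 37.1 and 35.0 CPM in Eko mice, with a log2 fold change of -0.16. Leaving out each mouse in turn gave -0.22 to -0.08 for Acadvl, -0.23 to -0.04 for Acadl and -0.23 to -0.07 for Acads. The more distant Acad11 and the low Acad10 overlapped between genotypes, with log2 fold changes of 0.05 and -0.11. Acadm made up 32.5% and 32.7% of the summed CPM per kb of the 6 genes in WT and 37.1% and 37.2% in Eko mice, so the mice within a genotype differed by far less than the genotypes. For each count of Acadvl there were 1.37 and 1.34 counts of Acadm in WT and 1.62 and 1.75 in Eko mice. The exact two-sided permutation p of this share was 0.333, the lowest that 2 against 2 allows.

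At the later steps, 3 of 5 genes were lower in both Eko mice and none was higher in both, beside 23.0% and 20.8% of all genes. Hadha and Hadhb encode the subunits of the mitochondrial trifunctional protein and start from the shared stretch printed above. Hadha was at 245 and 246 CPM in WT and 229 and 229 CPM in Eko mice, very close within a genotype and lower in both Eko mice, with a log2 fold change of -0.10 (95% interval -0.25 to 0.05). Hadhb was at 194 and 219 CPM in WT and 210.1 and 205 CPM in Eko mice, which lay between the WT mice, and its log2 fold change of 0.00 had a 95% interval from -0.18 to 0.19. The ratio of Hadha to Hadhb counts was 1.26 in WT replicate 1 and between 1.09 and 1.12 in the other 3 mice, so the pair departed from a fixed ratio in the library that stood apart. Acaa2, the last thiolase of the cycle, was at 69.8 and 78.2 CPM in WT and 64.4 and 64.2 CPM in Eko mice, with a log2 fold change of -0.20 (95% interval -0.39 to -0.02, edgeR adjusted p = 0.396). That value ran from -0.28 to -0.10 when each mouse was left out in turn. Hadh, the dehydrogenase for shorter hydroxyacyl chains, was at 97.2 and 105 CPM in WT and 93.5 and 88.1 CPM in Eko mice, lower in both. Echs1, the short-chain hydratase, had 33.4 CPM in WT replicate 1 and 39.3 to 39.7 CPM in the other 3 mice, so its log2 fold change of 0.11 turned to -0.01 without that library.

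The enzymes that prepare unsaturated acids for the cycle, Eci1, Eci2 and Decr1, had log2 fold changes from -0.13 to -0.05. Eci2, an enoyl-CoA isomerase found also in peroxisomes, was lower in both Eko mice, at 26.9 and 29.2 CPM against 29.8 and 31.5 CPM in WT, and the gap between the groups was smaller than the spread within either. Eci1, its mitochondrial counterpart, and Decr1, the dienoyl-CoA reductase, overlapped between genotypes. Both had their highest level in WT replicate 2, at 49.6 CPM for Eci1 and 77.3 CPM for Decr1. Of the electron transfer genes, Etfdh, whose product hands the electrons to ubiquinone, had 99.8 and 100.5 CPM in WT and 91.7 and 91.3 CPM in Eko mice. The mice of a genotype were within 1 CPM of each other, and the log2 fold change was -0.13 (95% interval -0.28 to 0.02, edgeR adjusted p = 0.488). Etfa, a subunit of the flavoprotein, was at 67.2 and 68.2 CPM in WT and 64.2 and 63.3 CPM in Eko mice, a log2 fold change of -0.09, while Etfb, its partner subunit, overlapped with a log2 fold change of -0.01 that changed sign with a GC correction (0.08).

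Acot2, a mitochondrial thioesterase that splits acyl-CoA again (chr12:83987861-83993873), had the most negative log2 fold change of the set. It was at 15.2 and 14.5 CPM in WT mice against 9.27 and 12.1 CPM in Eko mice, with no overlap. The log2 fold change was -0.48 (95% interval -0.79 to -0.17, edgeR adjusted p = 0.256), and ran from -0.68 to -0.29 when each mouse was left out in turn. Acot2 shares long stretches with its neighbour Acot1, so that reads could have been divided between them in an uncertain way. Acot1, a cytosolic thioesterase on the wider list of lipid genes, was at 0.632 and 1.36 CPM in WT and 0.441 and 0.517 CPM in Eko mice. Acot13, a small mitochondrial thioesterase, was nearly the same in the mice of a genotype, at 38.2 and 38.3 CPM in WT and 34.0 and 33.6 CPM in Eko mice, a log2 fold change of -0.18 (95% interval -0.34 to -0.02, edgeR adjusted p = 0.377). Ucp3, the muscle uncoupling protein of the inner membrane, was set by 1 mouse: Eko replicate 1 had 74.5 CPM, while Eko replicate 2 had 112 CPM and the WT mice 112 and 116 CPM. Its log2 fold change of -0.29 (95% interval -0.69 to 0.12) became -0.01 without that mouse and -0.61 without the other.

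The next comparison asked whether the set followed the mouse or the genotype. WT replicate 2 held the highest level of the 4 mice for 23 of the 36 genes (63.9%), where it did so for 23.6% of all genes. Eko replicates 1 and 2 held the lowest level for 12 and 13 genes (33.3% and 36.1%), beside 22.9% and 27.7% of all genes. WT replicate 1 held it for 8 genes (22.2%, beside 27.1% of all genes). WT replicate 2 was above WT replicate 1 for 26 of the 36 genes (72.2%, against 49.2% of all genes), so the WT mice were not alike for this set. Eko replicate 2 was above replicate 1 for 17 of 36, close to the 49.6% of all genes. The median size of the difference was 0.12 between the WT mice, 0.06 between the Eko mice and 0.15 between the genotypes, each on the log2 scale, where all genes had 0.15, 0.13 and 0.14. Summed over the 36 genes, the level was 3768 and 3950 CPM in WT mice and 3371 and 3412 CPM in Eko mice.

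**Figure D5:**
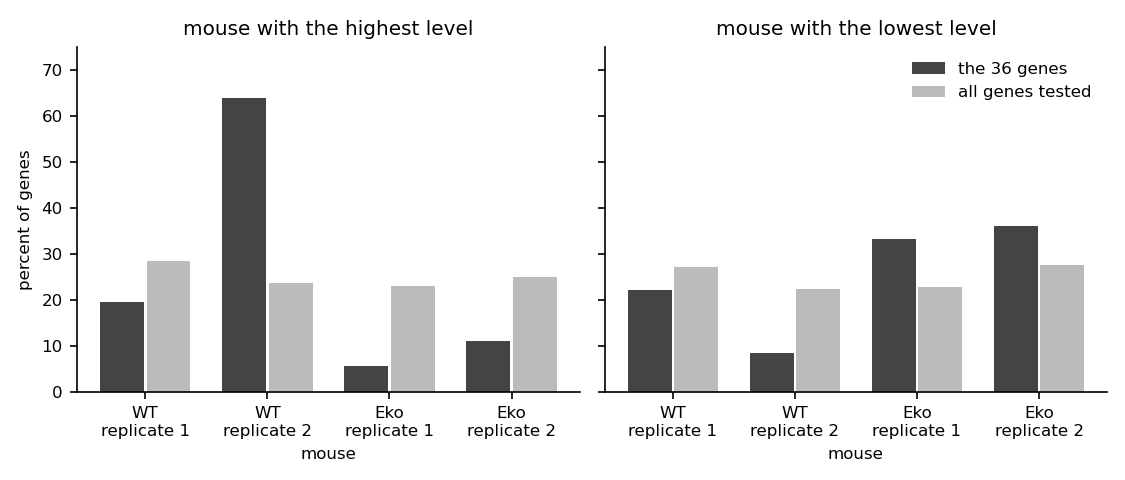
Percent of genes for which each mouse had the highest (left) or the lowest (right) level of the 4, for the 36 genes (dark bars) and all genes tested (light bars). WT replicate 2 is the highest for 63.9% of the 36 genes and 23.6% of all genes. The Eko mice are the lowest for 33.3% and 36.1% of the 36 genes and for 22.9% and 27.7% of all genes.

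Fibre markers differed among the mice as well. A list of 8 oxidative fibre markers summed to 1959 and 2594 CPM in WT mice and 1853 and 1417 CPM in Eko mice. The highest sum was in WT replicate 2, and Myh2 made up most of each sum. Of the 8, only Myh2 was lower in both Eko mice, where 23.0% of all genes were, and the genotypes overlapped for the other 7. Myh2, the myosin heavy chain of fast oxidative fibres, was at 1576 and 1709 CPM in WT and 1264 and 1041 CPM in Eko mice, a log2 fold change of -0.51 (edgeR adjusted p = 0.161). Myoglobin (Mb), which stores oxygen in oxidative fibres, was at 1430.4 and 1303 CPM in WT and 1050.1 and 884 CPM in Eko mice, a log2 fold change of -0.50 (edgeR adjusted p = 0.157). It belongs to a list of 8 general muscle fibre markers, of which 4 were higher and 2, Mb and Acta1, lower in both Eko mice, with a median log2 fold change of 0.09. Of 8 glycolytic fibre markers, 4 were higher and 0 were lower in both Eko mice, where 20.8% and 23.0% of all genes were. Myh4, Mylpf and Atp2a1, among the higher genes, are counted in both the general and the glycolytic list. The part of fibre makeup in the lower levels of fatty acid genes was not tested.

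A wider list of lipid genes that are not among the 36 gives the surroundings of the pathway. Of its 74 symbols, 73 were in the table and 70 passed the filter, and none of the 70 passed edgeR's quasi-likelihood test at an adjusted p of 0.05, with 15 at an unadjusted p below 0.05 (21.4%, beside 11.6% of all genes), 10 lower and 5 higher. DESeq2 called 2 of them, Dgat2 lower and Abcd2 higher, among 318 genes in all, and limma-voom called 0, among 57 in all. Both Eko mice were below both WT mice for 26 of the 70 genes (37.1%) and above for 10 (14.3%), beside 23.0% and 20.8% of all genes, and the median log2 fold change was -0.07, beside -0.01. The 5 genes with the lowest unadjusted p went in both directions. Abcd2, a peroxisomal transporter of very-long-chain acyl-CoA, was higher in both Eko mice, at 83.5 and 86.7 CPM against 68.0 and 65.2 CPM in WT (log2 fold change 0.35, edgeR adjusted p = 0.124). Mut, the methylmalonyl-CoA mutase that handles the end of odd-chain acids and some amino acids, was higher as well, at 61.2 and 66.2 CPM against 48.9 and 53.9 CPM in WT (log2 fold change 0.31, edgeR adjusted p = 0.237).

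Dgat2, which makes triglyceride, was lower in both Eko mice, at 25.8 and 20.7 CPM against 32.7 and 33.8 CPM in WT, a log2 fold change of -0.52 (edgeR adjusted p = 0.161). Lpin1, a phosphatidate phosphatase that also acts with PPAR coactivators, was at 422 and 371 CPM in WT and 314 and 327 CPM in Eko mice, a log2 fold change of -0.31 (edgeR adjusted p = 0.252). Esrrb, an oestrogen-related receptor, was low, at 5.47 and 6.12 CPM in WT and 4.18 and 3.79 CPM in Eko mice, a log2 fold change of -0.54 (edgeR adjusted p = 0.211). Among groups of this list, the 7 other carnitine genes had log2 fold changes from -0.23 to -0.04, with 5 lower in both Eko mice, and 7 of 16 regulators were lower in both and 2 higher. The 10 peroxisomal genes had a median log2 fold change of 0.00, with 3 lower and 1 higher in both Eko mice. Of all genes, 23.0% were lower and 20.8% higher in both.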

How the data were processed

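The authors selected polyA RNA from quadriceps with a stranded kit, aligned the reads to the mm10 (GRCm38) genome (STAR 2.6.1a per the submitters' processing notes), and estimated a count for each gene with RSEM on an Ensembl annotation. These expected counts were deposited without normalization and were all whole numbers, so rounding changed no value. RSEM divides reads that match several genes by a probability model.

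Groups came from the labels. In R 4.3.3, genotypes were compared with edgeR 4.0.16 (quasi-likelihood test, TMM, filterByExpr, prior count 0.125, genotype as the only term), with Benjamini-Hochberg adjustment over 16120 genes at a threshold of 0.05. The study's own tool, DESeq2 (1.42.0), was an alternative, with RLE, upper-quartile and total-count scaling, other filters, edgeR's likelihood ratio test, limma-voom (limma 3.58.1), a replicate block, a GC correction, and leaving out each mouse. Total-count scaling, the counts of mice that did not overlap and the longest coding transcript as the length were chosen after the data were seen. The 36 genes and the other lists were chosen with earlier results of these data known. Of the wider list, the text names the 5 genes with the lowest unadjusted p, and Acot1, Adipoq, Cfd, Myh2, Myh4, Mylpf, Atp2a1 and Mb were named after their values were seen. Positions and lengths are from GENCODE M21 on GRCm38, which has 92.1% of the symbols, and promoter sequences are from RefSeq (GRCm38.p6). Intervals are 95% intervals of the fit over 4 libraries, and nothing says more about how the mice relate than that they are littermates, so p-values measure the spread between these mice. The fit leaves 2 residual degrees of freedom, and the edgeR test draws the spread of each gene partly from the other genes. Exons of 11 of the 36 genes overlap a gene on the other strand and those of 4 a gene on the same strand.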

Additional observations from a re-analysis of the deposited data

How the results depend on the processing

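Over 15 alternatives, the 540 log2 fold changes of the 36 genes kept their direction and side of the threshold in 499 cases, passed the threshold in 20 and changed sign in 21, and 26 genes never changed sign. The number of the 36 genes called was 0 in the edgeR test, 4 with DESeq2, 9 without a filter on low counts (where 3.25% of all genes were called), 1 with the likelihood ratio test (Acsl1), and 0 to 3 when a mouse was left out: Lpl without WT replicate 1, Acsl1, Lipe and Pnpla2 without WT replicate 2, and Acot2 and Ucp3 without Mef2dα2 Eko replicate 2. Over all genes, the 67 calls became 318 with DESeq2, 799 without a filter, 23 at 1 CPM in 2 libraries, 312 with the likelihood ratio test, 35 with total-count scaling, and 99 to 299 when a mouse was left out. Of the wider list, 0 genes became 2 with DESeq2, 11 without a filter, 2 with the likelihood ratio test, and 1 to 2 when a mouse was left out. The median log2 fold change of the 36 genes lay between -0.16 and -0.08 over these alternatives, and the number lower in both Mef2dα2 Eko mice between 21 and 29. Changes of sign were found for Slc27a1 (0.090 with a GC correction, 0.091 with it and the replicate block, -0.092 to 0.084 when a mouse was left out), Hadhb (-0.0013 with total-count scaling, -0.013 with a GC correction, -0.0099 with it and the block, -0.081 to 0.11 when a mouse was left out), Etfb (0.076 with a GC correction, 0.085 with it and the block, -0.14 to 0.14 when a mouse was left out) and, when a mouse was left out, Acsl3 (-0.44 to 0.28), Acsl5 (-0.16 to 0.32), Cpt1a (-0.060 to 0.28), Acad10 (-0.22 to 0.00015), Echs1 (-0.0081 to 0.26), Eci1 (-0.26 to 0.041) and Decr1 (-0.14 to 0.058). The cause was not tested. With the replicate number as a block, 186 genes were called in all and 0 of the 36 genes and of the wider list, and the deviations of same-numbered mice had a correlation of 0.09 across genes (0.24 for genes at 5 CPM or more), and no source used here pairs the mice, so the numbers were not taken as pairs. With 1 mouse left in a genotype, that mouse is assumed to vary like the others. The 36 genes had at least 156 counts in each mouse, and their precision rests on 2 mice per genotype.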
